A study of Homo sapiens with 8 samples.

Results

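The snoRNA-derived miRNA names are 9 entries of the human miRNA catalogue whose hairpins are also annotated as, or overlap, small nucleolar or small Cajal body RNAs. They are miR-664a-5p, miR-664a-3p, miR-664b-3p, miR-1248, miR-1291, miR-3607-5p, miR-3607-3p, miR-3609 and miR-3651. They were taken by name from every table and make up 9 of the 1818 mature names listed in the 8 libraries. Small RNA was sequenced with AQ-seq, a small-RNA library method built to limit ligation bias, from total RNA of HCT116, a human colorectal carcinoma line. The cells carried a rescue with DICER R1855L, DICER R821H, DICER R1003Q or wild-type (WT) DICER, with 2 libraries for each of these 4 groups. The question of the design is how each substitution alters the small RNAs that DICER makes. Every group, WT included, is a rescue. What the cells kept of their own DICER, what drove the rescue and whether a group is 1 clone are not stated, nor whether replicates were separate cultures. The p-values therefore speak of the spread within these pairs of libraries, which may be technical.

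DICER, an RNase III enzyme, cuts the loop from a pre-miRNA and leaves a short duplex with a 5p and a 3p strand. R1855 lies in its double-stranded RNA binding domain, while R821 and R1003 lie in the platform and PAZ region that holds the ends of the hairpin. Small nucleolar RNAs (snoRNAs) guide chemical changes of ribosomal RNA: the H/ACA class, with hairpins joined by a hinge and a closing ACA box, guides pseudouridylation, and the C/D class guides methylation of the ribose. Small Cajal body RNAs (scaRNAs) do the same for spliceosomal RNAs. Some H/ACA hairpins are known to be cut by DICER into RNAs of miRNA size that bind Argonaute. The tables count reads per name without read ends or lengths, so a DICER product and a fragment of the parent snoRNA counted under the same name cannot be told apart.

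The mature sequences below are shown because their place in the parent RNA divides the names into those from the 5′ end and those from the 3′ part of a snoRNA. They are RefSeq sequences on GRCh38.p14, written 5′ to 3′ with the seed, bases 2 to 8, in capitals, and 6 of the 9 names matched the RefSeq table.
hsa-miR-1248: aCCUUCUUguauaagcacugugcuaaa
hsa-miR-1291: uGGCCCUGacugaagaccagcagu
hsa-miR-664a-5p: aCUGGCUAgggaaaaugauuggau
hsa-miR-664a-3p: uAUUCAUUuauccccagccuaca
hsa-miR-664b-3p: uUCAUUUGccucccagccuaca
hsa-miR-3651: cAUAGCCCggucgcugguacauga

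The 6 seeds all differ, so no seed family is formed among these names. Of the 2370 RefSeq mature names searched, 1 other name shares the seed of miR-664a-5p (miR-4794), 1 that of miR-664b-3p (miR-579-3p) and 1 that of miR-1291 (miR-6775-3p). The other 3 seeds were shared with no other name in that table. The 3p strands of miR-664a and miR-664b matched at 19 of 24 aligned columns (79.2%) and both end in the letters ACA. That ending was found in 33 of the 2370 names (1.39%), searched on the RNA strand alone. ACA anywhere in the last 6 bases was found in 3 of the 6 sequences, miR-3651 being the third, against 131 of the 2370 names (5.53%). A match of letters is a description and does not by itself show a functional box. Whether these letters are the closing ACA box of the parent snoRNA was not tested.

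Each parent RNA was read from GENCODE release 29 on GRCh38, on the same strand as the hairpin. miR-1248, at chr3:186786675-186786701 on the plus strand, covers bases 1 to 27 of the 178-base SNORA81, and its hairpin overlaps an annotated exon of EIF4A2, a translation initiation helicase. miR-1291, at chr12:48654494-48654517 on the minus strand, covers bases 2 to 25 of the 137-base SNORA2C within an intron of KANSL2. Both names start at the 5′ end of their snoRNA.

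The other 4 sequences come from the 3′ part of their snoRNA. miR-664a-5p, at chr1:220200586-220200609 on the minus strand, covers bases 68 to 91 of the 131-base SNORA36B in an intron of RAB3GAP2. miR-664a-3p, at chr1:220200549-220200571, covers bases 106 to 128 of the same snoRNA and leaves 3 bases to its 3′ end. miR-664b-3p, at chrX:154768635-154768656 on the plus strand, covers bases 108 to 129 of the 132-base SNORA36A and also leaves 3 bases. The MIR664B hairpin overlaps an annotated exon of DKC1, the gene of dyskerin, which is the pseudouridine synthase of H/ACA particles. miR-3651, at chr9:92292461-92292484 on the minus strand, covers bases 110 to 133 of the 133-base SNORA84 in an intron of IARS, an isoleucyl-tRNA synthetase gene. It ends on the last base of the snoRNA.

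**Figure D1:**
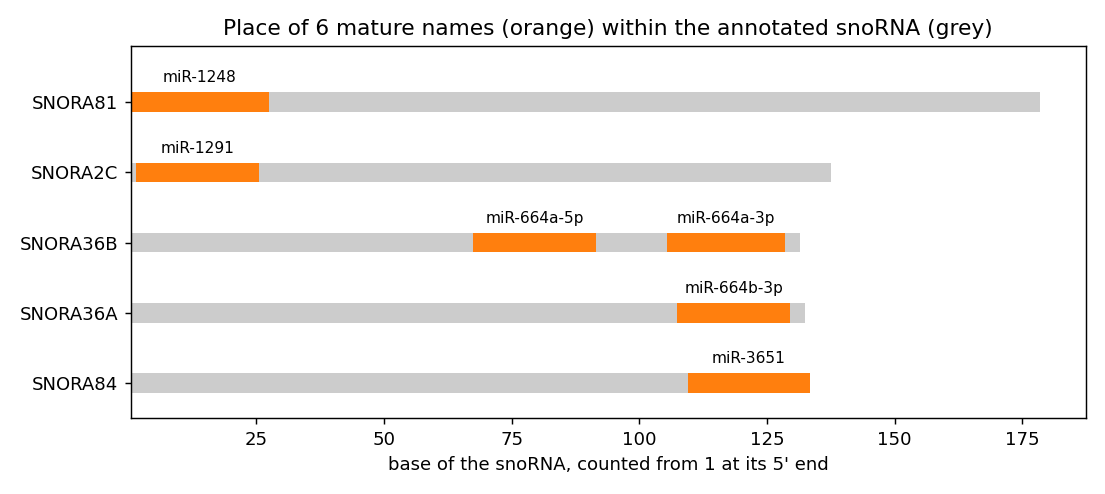
Place of 6 mature names (orange) within the annotated snoRNA (grey), with the x axis in bases from the 5′ end of each snoRNA. miR-1248 and miR-1291 lie at the 5′ end, and miR-664a-3p, miR-664b-3p and miR-3651 end within 3 bases of the 3′ end.

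The remaining 3 names come from other kinds of parent. MIR3607 is a RefSeq synonym of SNORD138, a C/D snoRNA of 63 bases at chr5:86620506-86620568 within the span of COX7C, a cytochrome c oxidase subunit gene. MIR3609, at chr7:98881650-98881729 in an intron of TRRAP, has its own miRNA entry in RefSeq. Only its higher-numbered end overlaps the 194-base SCARNA28 entry (98881697 to 98881890), and the strands of these entries were not compared. The share of the hairpin that lies inside the annotated snoRNA was 97.2% for MIR1248, 86.2% for MIR1291, 96.7% for MIR3651, 90.2% for MIR664A and 100% for MIR664B.

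Library totals ranged from 462805 to 4269231 reads, a 9.22-fold range. The widest gap between totals on the log scale set R1855L replicate 1, R821H replicate 1 and WT replicate 2 (3 deep libraries) apart from the other 5 (shallow libraries). Both R1003Q libraries are shallow, so no deep R1003Q library exists to set beside the deep WT library. The 2 libraries of a group correlated at 0.946 to 0.983 on the log scale. Epithelial miRNAs chosen as markers of HCT116 were all listed, 7 of 7, with miR-21-5p at 28.8% to 45.2% of reads. Of the markers of other cells, 10 of 10 were listed at a summed level of 1266 to 1758 RPM (reads scaled to a common library total) in R1855L libraries, 1221 to 1446 in R821H, 1272 to 1291 in R1003Q and 1327 to 1378 in WT. Among them, miR-9-5p (532 to 1076 RPM), miR-142-3p (257 to 449), miR-451a (115 to 302) and miR-122-5p (60.7 to 114) made up most of that level, and miR-155-5p and miR-124-3p had at most 1.67 reads in any library. Of the epithelial markers, miR-31-5p was at 37680 to 53076 RPM, miR-429 at 260 to 764, miR-194-5p at 140 to 189 and miR-192-5p at 120 to 186. The epithelial miR-200c-3p (21.1 to 43.7 RPM) and miR-141-3p (13.0 to 42.9) lay below miR-9-5p, miR-142-3p, miR-451a and miR-122-5p. The tables hold no DICER transcript, so the rescue itself could not be checked from them.

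All 9 names had reads in all 8 libraries, none had a fractional count, and all 9 passed the filter on low counts that left 625 names for testing. Their summed share of the library was 237 and 521 RPM in R1855L libraries, 160 and 372 in R821H, 267 and 268 in R1003Q, and 256 and 134 in WT. The exact 95% intervals, which cover counting error only, were 218 to 258 and 457 to 591 for R1855L replicates 1 and 2, and 227 to 287 and 123 to 145 for WT. The group means were 379 ± 200.4 RPM in R1855L, 266 ± 150.1 in R821H, 267 ± 0.723 in R1003Q and 195 ± 86.3 in WT (SD, n = 2 each). On these totals R1855L replicate 1 lay below WT replicate 1, so those groups overlap, and in each group with a deep library the shallow one had the larger share. After TMM scaling, which adjusts the library total for composition, the summed level was 261 and 443 CPM in R1855L, 182 and 372 in R821H, 272 and 257 in R1003Q, and 221 and 148 in WT. On that scale both R1855L and both R1003Q libraries lay above both WT libraries, and R821H overlapped WT. With miR-21 reads taken out of the totals, R1855L stood at 433 and 735 RPM against 359 and 215 in WT, also without overlap. In these bulk samples, fewer cells that make an RNA and less of that RNA per cell cannot be told apart.

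Pooled over the 8 libraries, miR-1248 had 1442 of these reads, or 48.6%. miR-1291 followed with 340 reads (11.5%), miR-664a-3p with 319 (10.8%), miR-3607-5p with 193 (6.50%), miR-3609 with 191 (6.44%), miR-3607-3p with 162 (5.46%), miR-664a-5p with 145 (4.89%), miR-664b-3p with 88 (2.97%) and miR-3651 with 87 (2.93%). The share of miR-1248 within the summed reads was 44.9% and 56.0% in R1855L libraries, 35.8% and 56.2% in R821H, 64.9% and 61.3% in R1003Q, and 68.0% and 34.0% in WT. It was lower in the deep library of each group that has one. The pooled order leans on the deep libraries: miR-664a-3p had 265 of its 319 reads in those 3. It made up 11.8% to 21.0% of the summed reads in each deep library and 3.28% to 4.97% in each shallow one, where miR-3607-5p made up 4.97% to 8.71%.

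**Figure D2:**
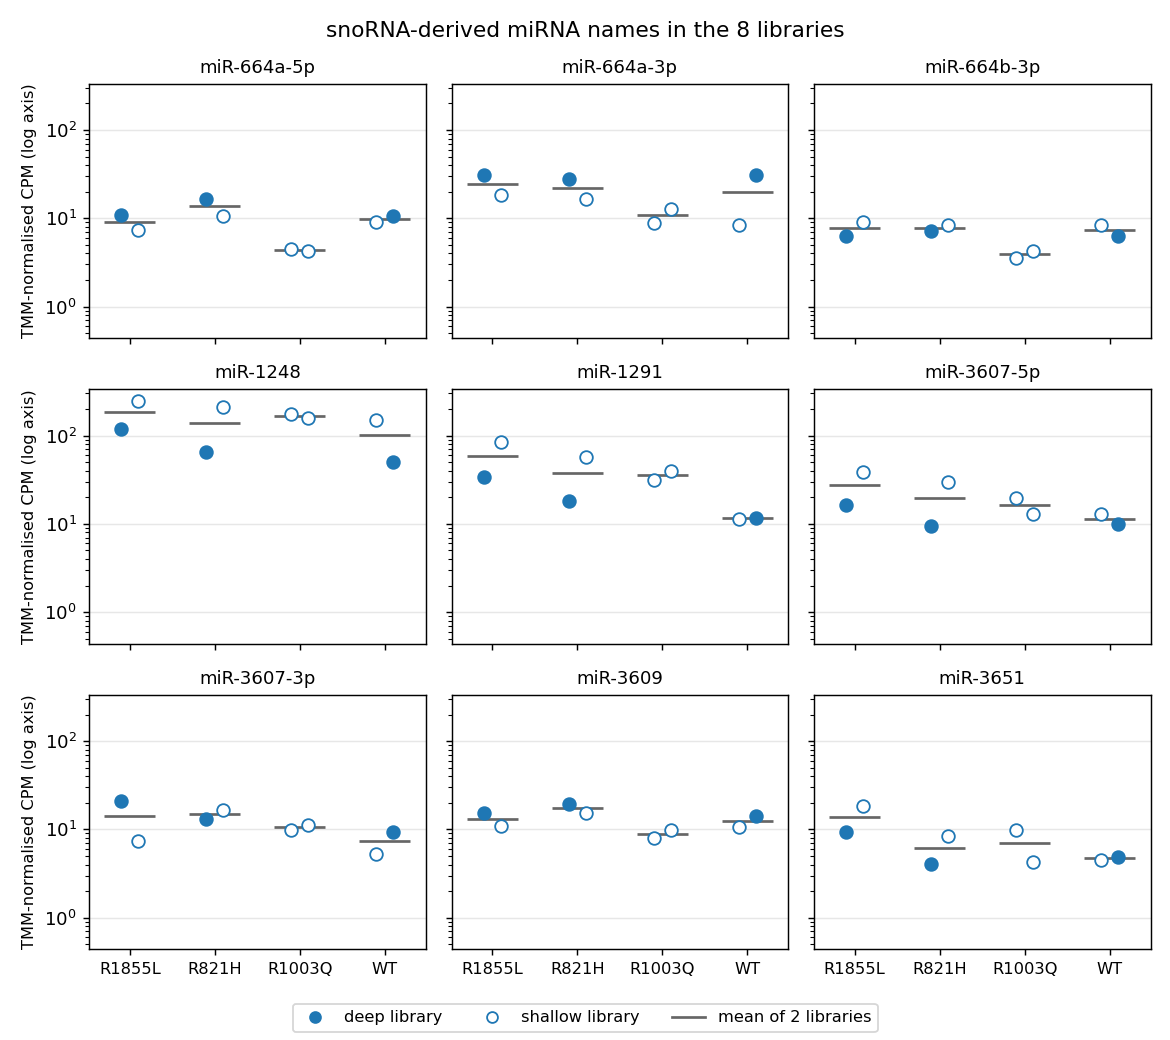
Level of each of the 9 names in CPM after TMM scaling (log axis) in the 8 libraries, with filled points for deep libraries, open points for shallow ones and a bar at the mean of the 2 libraries of a group. On this scale miR-1291 is the one name with all 6 mutant libraries above both WT libraries, and miR-1248 is lower in the deep library of R1855L, R821H and WT.

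miR-1291, from the 5′ end of SNORA2C, was higher in every mutant library than in either WT library. Levels are given from here on in CPM after TMM scaling. miR-1291 stood at 33.9 and 84.5 CPM in R1855L libraries (69 and 46 reads), 18.4 and 57.1 in R821H (54 and 48 reads), 31.2 and 39.8 in R1003Q (35 and 28 reads), and 11.4 and 11.7 in WT (15 and 45 reads). The means were 59.2 ± 35.8 CPM in R1855L, 37.7 ± 27.4 in R821H, 35.5 ± 6.01 in R1003Q and 11.5 ± 0.220 in WT (SD, n = 2 each). Of the 625 names tested, 32 (5.12%) had all 6 mutant libraries above both WT libraries, and miR-1291 was the only one of the 9 among them. On library totals without TMM there were 24 (3.84%), and miR-3607-3p joined miR-1291. The 3 mutants share the same WT libraries, so these are not independent comparisons.

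In the model with group alone, fitted with edgeR's quasi-likelihood test over all 625 names, miR-1291 did not pass an adjusted p of 0.05 in any mutant. Its log2 fold change was 2.29 in R1855L against WT (SE 0.65, a 4.90-fold higher level, Benjamini-Hochberg adjusted p = 0.0990 by edgeR). It was 1.63 in R821H (SE 0.64, edgeR adjusted p = 0.994, 0.0358 before adjustment) and 1.60 in R1003Q (SE 0.65, edgeR adjusted p = 0.857, 0.0403 before adjustment). DESeq2 gave 2.31 in R1855L with an adjusted p of 0.0130, and edgeR without the filter on low counts gave 2.12 with an adjusted p of 0.00069. Whether miR-1291 passes in R1855L thus depends on the fit, while its sign was positive in each of the 16 alternative fits in every mutant.

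The 2 libraries of R1855L, R821H and WT differ in depth class, and this enters the spread that the test uses. With deep against shallow as a term in the model, miR-1291 rose in R1855L (log2 fold change 2.04, SE 0.33, edgeR adjusted p = 2.4e-05) and in R821H (1.32, SE 0.33, edgeR adjusted p = 0.0241). R1003Q gave 0.88 (SE 0.39, edgeR adjusted p = 0.326), which did not pass. Within the deep libraries the log2 ratio to WT was 1.54 in R1855L and 0.65 in R821H. Within the shallow libraries it was 2.89 in R1855L, 2.33 in R821H and 1.63 in R1003Q. With the depth term and each library left out in turn, miR-1291 stayed called in R1855L, at 1.48 to 2.83 in the 4 fits that left out an R1855L or WT library. In those fits 1 library stands alone in its group and is assumed to vary like the other groups. In R821H its call was lost without WT replicate 1 (0.74, edgeR adjusted p = 0.675) and without R821H replicate 2 (0.92, edgeR adjusted p = 0.298).

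miR-1248, from the 5′ end of SNORA81, kept to a narrow range of raw reads. It had 239 and 135 reads in R1855L libraries, 191 and 176 in R821H, 198 and 111 in R1003Q, and 198 and 194 in WT. Its highest read number was 2.15 times its lowest, against 9.22 times for the library totals. R1855L libraries stood at 117 and 248 CPM, R821H libraries at 65.1 and 209, and R1003Q libraries at 177 and 158. WT replicate 1, with 198 reads in a library of 1137858, stood at 150 CPM, and WT replicate 2, with 194 in a library of 4269231, at 50.4 CPM. Both R1003Q libraries lay above both WT libraries on this scale, and the R1855L and R821H libraries overlapped WT. On library totals R1003Q, at 173 and 164 RPM, overlapped WT, at 174 and 45.4 RPM.

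In the group model the log2 fold change of miR-1248 was 0.86 in R1855L (SE 0.69, edgeR adjusted p = 0.566), 0.45 in R821H (SE 0.69, edgeR adjusted p = 0.994) and 0.76 in R1003Q (SE 0.69, edgeR adjusted p = 0.881). With the depth term it rose in R1855L (0.99, SE 0.22, edgeR adjusted p = 0.00109). In that model R821H gave 0.42 (SE 0.22, edgeR adjusted p = 0.392) and R1003Q gave 0.22 (SE 0.24, edgeR adjusted p = 0.753). Within the shallow libraries the log2 ratio of R1003Q to WT was 0.15. The call in R1855L was lost without WT replicate 2 (0.75, edgeR adjusted p = 0.106) and without R1855L replicate 1 (0.57, edgeR adjusted p = 0.138). The log2 ratio to WT in R1855L was 1.22 within the deep libraries and 0.72 within the shallow ones.

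miR-664a-3p, from the 3′ end of SNORA36B, stood at 30.9 and 18.4 CPM in R1855L libraries, 27.9 and 16.7 in R821H, 8.93 and 12.8 in R1003Q, and 8.34 and 31.2 in WT. The deep library was the higher one in R1855L, R821H and WT, and every mutant overlapped WT. Its log2 fold change was 0.31 in R1855L (SE 0.61), 0.15 in R821H (SE 0.60) and -0.95 in R1003Q (SE 0.67), with edgeR adjusted p-values of 0.809, 0.994 and 0.859. Within the shallow libraries the log2 ratio of R1003Q to WT was 0.36, the opposite sign to the value fitted without a depth term.

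miR-664a-5p and miR-664b-3p were lower in both R1003Q libraries than in either WT library. miR-664a-5p had 10.8 and 7.35 CPM in R1855L libraries, 16.7 and 10.7 in R821H, 4.46 and 4.26 in R1003Q, and 9.10 and 10.6 in WT. miR-664b-3p had 6.38 and 9.19 CPM in R1855L libraries, 7.15 and 8.33 in R821H, 3.57 and 4.26 in R1003Q, and 8.34 and 6.23 in WT. The R1003Q values rest on 5 and 3 reads for miR-664a-5p and on 4 and 3 reads for miR-664b-3p. Neither difference passed: the log2 fold change in R1003Q was -1.18 for miR-664a-5p (SE 0.49, edgeR adjusted p = 0.857, 0.0451 before adjustment) and -0.87 for miR-664b-3p (SE 0.54, edgeR adjusted p = 0.857). In R1855L and R821H the log2 fold changes of these names lay between -0.06 and 0.50, and none passed the test. Within the shallow libraries the log2 ratio of R1003Q to WT was -1.06 for miR-664a-5p and -1.10 for miR-664b-3p. With the depth term R1003Q gave -0.89 (SE 0.64) and -1.08 (SE 0.72), with edgeR adjusted p-values of 0.575 and 0.557.

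miR-3651, which ends with SNORA84, had the fewest reads, 3 to 19 in a library. It stood at 9.33 and 18.4 CPM in R1855L libraries, 4.09 and 8.33 in R821H, 9.82 and 4.26 in R1003Q, and 4.55 and 4.94 in WT. Both R1855L libraries lay above both WT libraries, and the other mutants overlapped WT. The log2 fold change in R1855L was 1.41 (SE 0.61, edgeR adjusted p = 0.270), and 1.28 with the depth term (SE 0.52, edgeR adjusted p = 0.0651), so it did not pass in either model. A floor of 3 reads corresponds to 0.779 CPM in the deepest library and to 5.51 CPM in the shallowest, so the levels of miR-3651, miR-664a-5p and miR-664b-3p lie close to it in the shallow libraries.

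The SNORD138 names are the 5p and 3p strands of MIR3607. miR-3607-5p stood at 16.2 and 38.6 CPM in R1855L libraries, 9.54 and 29.7 in R821H, 19.6 and 12.8 in R1003Q, and 12.9 and 9.87 in WT. Both R1855L libraries lay above both WT libraries, and R821H and R1003Q overlapped WT. On library totals R1855L replicate 1, at 14.7 RPM, lay just under WT replicate 1, at 14.9 RPM, so R1855L overlapped WT too. Its log2 fold change in R1855L was 1.19 in the group model (SE 0.65, edgeR adjusted p = 0.379). With the depth term miR-3607-5p rose in R1855L (1.06, SE 0.37, edgeR adjusted p = 0.0302), and that call was lost without WT replicate 1 (0.64), R1855L replicate 1 (1.07) or R1855L replicate 2 (0.97), with edgeR adjusted p-values of 0.388, 0.180 and 0.115.

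miR-3607-3p had 21.1 and 7.35 CPM in R1855L libraries, 13.3 and 16.7 in R821H, 9.82 and 11.4 in R1003Q, and 5.31 and 9.35 in WT. The reads behind these levels were 43 and 4 in R1855L, 39 and 14 in R821H, 11 and 8 in R1003Q, and 7 and 36 in WT. Both libraries of R821H and of R1003Q lay above both WT libraries, and R1855L overlapped WT. The log2 fold changes were 1.03 in R1855L (SE 0.52), 0.93 in R821H (SE 0.52) and 0.45 in R1003Q (SE 0.56), and none passed. In R1855L the depth term gave 1.06 (SE 0.43, edgeR adjusted p = 0.0621). With that term it passed without R1855L replicate 2 (1.36, edgeR adjusted p = 0.0234), and without R1855L replicate 1 it gave -0.10.

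miR-3609, from the locus of SCARNA28, was between 8.04 and 19.4 CPM in all 8 libraries. It stood at 15.2 and 11.02 CPM in R1855L libraries, 19.4 and 15.5 in R821H, 8.04 and 9.94 in R1003Q, and 10.6 and 14.03 in WT. The R821H libraries lay above both WT libraries, the R1003Q libraries lay below both, and R1855L overlapped WT. The log2 fold changes were 0.12 in R1855L (SE 0.38), 0.50 in R821H (SE 0.36) and -0.49 in R1003Q (SE 0.41), with no call in any mutant.

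**Figure D3:**
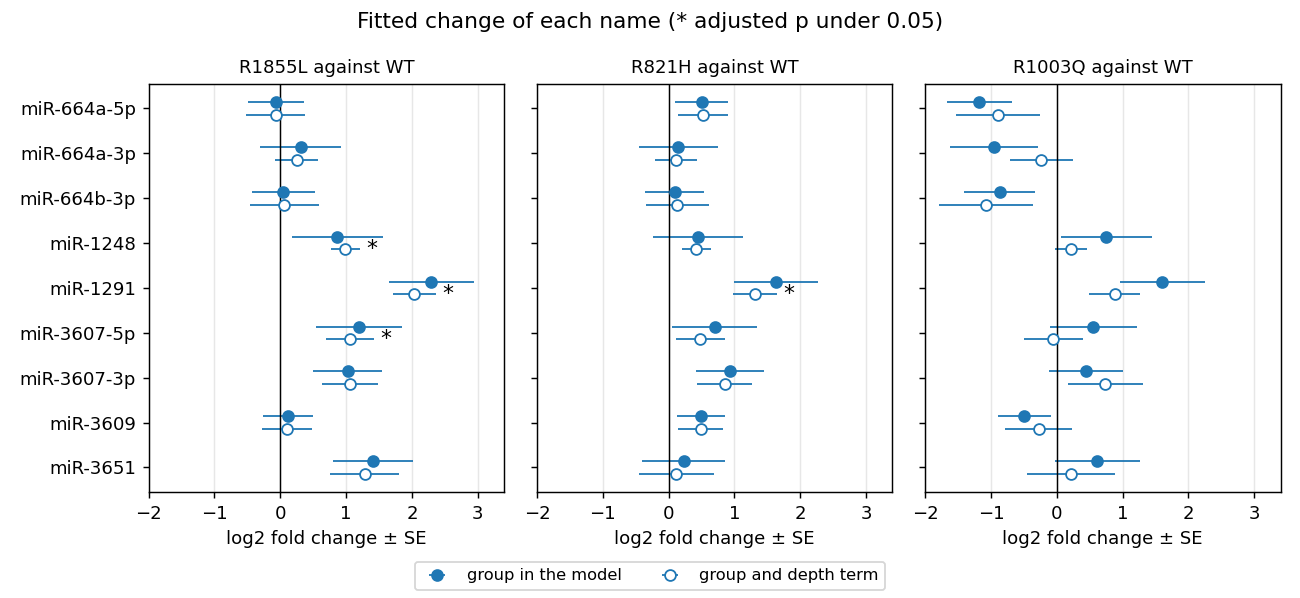
Fitted log2 fold change of each name in R1855L, R821H and R1003Q against WT, with bars of 1 SE, filled for the group model and open for the model with a depth term; an asterisk marks an edgeR adjusted p under 0.05. The open points of miR-1248, miR-1291 and miR-3607-5p in R1855L and of miR-1291 in R821H carry an asterisk, and no filled point does.

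Counted over the list, 0 of the 9 names were called in R1855L against WT by edgeR with group alone, where 5.76% of all 625 names were called (36 names, 0.32% higher and 5.44% lower). Before adjustment, 1 of the 9 and 18.4% of all names had p under 0.05, and DESeq2 with adjustment called 1 of the 9 and 52 names in all. In R821H against WT 0 of the 9 were called beside 0% of all names, with 1 of the 9 and 3.2% of all under 0.05 before adjustment, and DESeq2 with adjustment called 0 of the 9 and 1 name in all. In R1003Q against WT 0 of the 9 were called beside 0% of all names, with 2 of the 9 and 4.96% of all under 0.05 before adjustment, and DESeq2 with adjustment called 0 names.

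The median log2 fold change of the 9 names was 0.86 in R1855L, with 8 of 9 above 0, against 0.13 and 360 of 625 over all names. It was 0.50 in R821H, with 9 of 9 above 0, against 0.04 and 346 of 625. It was 0.45 in R1003Q, with 5 of 9 above 0, against 0.06 and 352 of 625. With the depth term, 3 of the 9 rose in R1855L, where 28.3% of all names were called, 11.7% higher and 16.6% lower. In the same model 1 of the 9 rose in R821H, where 2.56% of all were called, 0.8% higher and 1.76% lower. In R1003Q edgeR called 0 of the 9 with that term, where 0.32% of all were called, both lower, with 1 of the 9 and 13.1% of all under 0.05 before adjustment. The median in R1003Q was -0.05 with that term, so its sign changed with the model.

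Groups without overlap were counted against the same count over all names. In R1855L 3 of the 9 had both libraries above both WT libraries (miR-1291, miR-3607-5p and miR-3651) against 21.1% of all names, and 0 lay below against 21.4%. In R821H 4 lay above (miR-1291, miR-3607-3p, miR-3609 and miR-664a-5p) against 15.4%, and 0 lay below against 13.1%. In R1003Q 3 lay above (miR-1248, miR-1291 and miR-3607-3p) against 22.9%, and 3 lay below (miR-664a-5p, miR-664b-3p and miR-3609) against 17.8%. On library totals R1855L had 4 above, with miR-3607-5p lost and miR-3607-3p and miR-3609 gained, against 21.1% of all names. On those totals R821H had 4 above against 8.8%, and R1003Q had 2 above, with miR-1248 lost, against 18.6%, and 3 below against 20.6%.

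Deep against shallow, in the model with group and depth, 4 of the 9 were called by edgeR, 1 higher and 3 lower, where 36.5% of all names were called, 17.8% higher and 18.7% lower, so the count is near the share over all names. miR-1248 was lower in the deep libraries (log2 fold change -1.45, SE 0.18, edgeR adjusted p = 3.81e-07), as were miR-1291 (-1.10, SE 0.27, edgeR adjusted p = 0.00193) and miR-3607-5p (-1.09, SE 0.31, edgeR adjusted p = 0.00586). miR-664a-3p was higher in them (1.16, SE 0.30, edgeR adjusted p = 0.00293). The 3 names that were lower are those that rose in R1855L under the same model. The R1855L library of each depth class has fewer reads than the WT library of that class, and the part of depth within a class in these calls was not tested.

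Reads of miR-664a-3p ran from 9 to 120 over the libraries, a 13.3-fold range, and those of miR-664a-5p covered a 16.3-fold range, both wider than that of the totals. miR-1291 covered 4.6-fold and miR-3607-5p 4.22-fold, both narrower. Over the 8 libraries, Pearson's r of log2 CPM with the log2 library total was -0.944 for miR-1248, -0.754 for miR-3607-5p and -0.736 for miR-1291, and 0.618 for miR-664a-3p, 0.627 for miR-664a-5p and 0.585 for miR-3609. These are descriptions over 8 libraries in which depth and group are mixed, and the total enters both quantities.

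**Figure D4:**
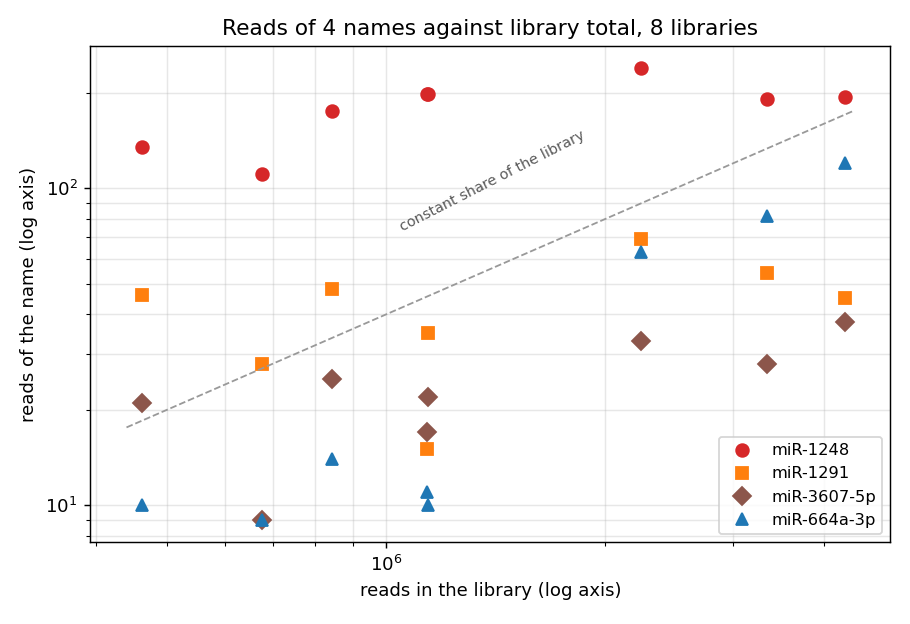
Reads of miR-1248, miR-1291, miR-3607-5p and miR-664a-3p against the reads of the library, both on log axes, 1 point per name and library; the dashed line has the slope of a constant share of the library. miR-1248 stays between 111 and 239 reads, while miR-664a-3p is at 9 to 14 in the shallow libraries and at 63 to 120 in the deep ones.

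The 36 pairs of names covered a wide range of likeness over the libraries. In log2 CPM, miR-664a-5p and miR-3609 correlated at 0.921, miR-664a-3p and miR-3609 at 0.80, miR-3607-5p and miR-3651 at 0.889, miR-1291 and miR-3607-5p at 0.856, and miR-1248 and miR-1291 at 0.753 (Pearson's r, 8 libraries that share depth). miR-3651 and miR-1291 correlated at 0.751, miR-664b-3p with miR-664a-3p at 0.291 and with miR-3607-5p at 0.296, and miR-3607-3p with miR-1291 at 0.312 and with miR-664b-3p at -0.148. The strands of MIR3607 correlated at 0.0141 and those of MIR664A at 0.667. The 5 other tested names closest to the summed CPM of the 9 were miR-663a (r = 0.959), miR-1247-5p (0.954), miR-6765-5p (0.95), miR-92a-3p (0.935) and miR-6087 (0.935). Of these, miR-663a is also on the list of names overlapping other non-coding RNAs described further on. The summed CPM itself had r = -0.862 with the log2 library total, and the part of depth in this likeness was not tested.

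A strand ratio within a hairpin does not depend on library scaling. The 5p share of miR-664a reads was 25.9% and 28.6% in R1855L libraries, 37.4% and 39.1% in R821H, 33.3% and 25% in R1003Q, and 52.2% and 25.5% in WT. The exact 95% interval of WT replicate 1 ran from 30.6% to 73.2%, and that of WT replicate 2 from 18.9% to 32.9%, so the WT intervals overlap only slightly. All mutant libraries except R1003Q replicate 2 lay between the WT values. The 5p share of miR-3607 was 43.4% and 84.0% in R1855L libraries, 41.8% and 64.1% in R821H, 66.7% and 52.9% in R1003Q, and 70.8% and 51.4% in WT, with every group overlapping WT. By depth class the miR-3607 share was 41.8% to 51.4% in the deep libraries and 52.9% to 84.0% in the shallow ones. The 52.9% is R1003Q replicate 2, with 9 reads of 5p and 8 of 3p. Its exact 95% interval of 27.8% to 77.0% covers the values of the deep libraries. How many of all pairs split by depth class in this way was not counted.

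On log2 of 5p over 3p reads, limma gave changes in miR-664a of -0.65 in R1855L (SE 0.66), 0.04 in R821H (SE 0.66) and -0.48 in R1003Q (SE 0.66), and none passed. For miR-3607 they were 0.29, -0.48 and -0.09 (SE 0.92 each), and none passed. Over all 174 pairs, 7.47% were called in R1855L (13 pairs), and limma called 0% in R821H and R1003Q. miR-664b was not tested, as its 5p strand had 52 reads in all.

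Between mutants, edgeR with group alone called 0 of the 9 in R821H against R1855L, where 3.84% of all names were called (3.52% higher and 0.32% lower), with 0 of the 9 and 14.9% of all at an unadjusted p under 0.05. It called 0 of the 9 in R1003Q against R1855L, where 3.68% were called, with 0 of the 9 and 14.7% of all at an unadjusted p under 0.05. In R1003Q against R821H it called 0 of the 9 and 0% of all names, with 2 of the 9 and 1.6% of all at an unadjusted p under 0.05. DESeq2 called 0 of the 9 in these 3 comparisons. With the depth term miR-1291 was lower in R1003Q than in R1855L (log2 fold change -1.15, SE 0.36, edgeR adjusted p = 0.0267), as was miR-1248 (-0.77, SE 0.25, edgeR adjusted p = 0.0328), making 2 of 9 lower where 14.9% of all names were called, 9.76% higher and 5.12% lower. In R821H against R1855L that model called 0 of the 9, where 18.2% of all were called, with 3 of the 9 and 30.2% of all under 0.05 before adjustment. In R1003Q against R821H it called 0 of the 9 and 0% of all names, with 1 of the 9 and 3.84% of all under 0.05 before adjustment. In the group model R1003Q against R1855L gave -0.69 (SE 0.62) for miR-1291 and -0.11 (SE 0.69) for miR-1248. The R1003Q and R1855L libraries overlapped in CPM for both names. Both R1003Q libraries are shallow, so at like depth they stand beside R1855L replicate 2 alone, the smallest library (462805 reads). The depth-term calls of R1003Q against R1855L were not refitted with a library left out.

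Of the 9 names, 4 had both R1003Q libraries below both R1855L libraries (miR-3609, miR-664a-3p, miR-664a-5p and miR-664b-3p), against 20.6% of all names, and 5 had them below both R821H libraries (the same 4 and miR-3607-3p), against 16.8%. None lay above in either comparison, against 24.3% and 19.7% of all names. On library totals the counts below were 4 against 22.7% for R1855L and 4 against 11.4% for R821H, with miR-3607-3p lost. Both R1003Q libraries are shallow, and 3 of the 4 names shared by those counts had positive correlations with the library total (the exception is miR-664b-3p, r = -0.0591). The part of depth in these counts was not tested.

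Other hairpins on snoRNAs or scaRNAs gave 5 further names, of which 4 were tested. miR-3653-5p, from SNORD125, had 932 reads over the 8 libraries, miR-6516-3p and miR-6516-5p, from SCARNA16, had 523 and 103, miR-3653-3p had 88 and miR-664b-5p had 52. miR-3653-5p was at 103 and 75.6 RPM in R1855L libraries, 55.1 and 87.9 in R821H, 70.8 and 87.3 in R1003Q, and 51.0 and 49.0 in WT. All 6 mutant libraries lay above both WT libraries on these library totals, as they did for 24 of the 625 names tested (3.84%). Its log2 fold change was 0.88 in R1855L (SE 0.35, edgeR adjusted p = 0.254), 0.60 in R821H (SE 0.35) and 0.66 in R1003Q (SE 0.35), and it was 0.18 deep against shallow (SE 0.23). miR-6516-3p gave 0.62, 0.64 and 0.37 in R1855L, R821H and R1003Q (SE 0.31, 0.31 and 0.32). The edgeR group model called 0 of the 4 in these comparisons, and their median log2 fold change was 0.67 in R1855L, 0.34 in R821H and 0.31 in R1003Q.

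The lists of names whose biogenesis departs from the usual route give the setting of R1855L against WT, in the group model unless stated. Names overlapping other non-coding RNAs (tRNA, ribosomal RNA and U2 RNA among them) had 10 tested, 10 above 0, 0 called and a median log2 fold change of 0.91. Mirtrons, made from spliced introns without DROSHA, had 11 tested, 3 above 0, 4 lower and a median of -1.22. Capped hairpins, which RNA polymerase II ends directly, had 5 tested, 0 above 0, 1 lower and a median of -1.26. In R821H the medians were 0.36 for names overlapping other non-coding RNAs, -0.15 for mirtrons and 0.91 for capped hairpins. Deep against shallow, the median was -0.37 for the 9 snoRNA-derived names, -0.65 for names overlapping other non-coding RNAs and -0.03 for all names. It was -0.40 for mirtrons and -1.43 for capped hairpins, so a lower level in deep libraries was not particular to the snoRNA-derived names. With the depth term in R1855L against WT, 8 of the 10 names overlapping other non-coding RNAs were called higher, beside 3 of the 9 snoRNA-derived names. In that model 6 of the 11 mirtrons and all 5 capped hairpins were called lower. Over all names, 11.7% were called higher and 16.6% lower there.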

How the data were processed

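AQ-seq libraries were made from 100 µg of TRIzol-extracted total RNA, amplified using the NEBNext Ultra II Q5 mix and sequenced by NovaSeq, per the labels' protocols. The submitters' processing notes name cutadapt, BWA, bedtools, hg38 and mm10. Their versions, order and roles were not given in the sources used here, nor was the miRNA annotation release or the treatment of reads with several places. The authors deposited 1 table of estimated counts per library, reads per mature name, neither normalised nor pooled, with fractions of a read in 19 to 33 names. A name that a table does not list was set to 0.

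Counts were rounded to whole numbers. Names were kept by filterByExpr (625 of 1818, with at least 99.8% of the reads of each library), scaled by TMM and tested in 1 quasi-likelihood model of 4 groups over all 8 libraries with edgeR 4.0.16 in R 4.3.3. Calls were made at a Benjamini-Hochberg adjusted p under 0.05 over all 625 names. The SE of a log2 fold change is its size over the square root of F. Strand ratios used limma 3.58.1 on 174 pairs with at least 80 reads per strand and a pseudocount of 0.5. The alternatives were DESeq2 1.42.0, other scalings, no filter, a filter of 10 CPM, a fit of 4 libraries at a time, a replicate block, a depth term and each library left out. The depth term with each library left out, and the overlap of groups on library totals, were chosen after seeing the data. The code was tested on simulated counts.

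Samples were grouped by their titles. Every one of the 9 names is reported, beside other names on snoRNA or scaRNA hairpins, the 5 names closest to their sum, and the lists of mirtrons, capped hairpins and names overlapping other non-coding RNAs. The names, lists, markers and the depth term were chosen with earlier results of these data known. Intervals are exact Clopper-Pearson intervals. No molecular identifiers are mentioned, so intervals and the floor of 3 reads cover counting error only. miR-664a and miR-664b are alike in part, with 79.2% of aligned columns identical in the 3p strands and 68.0% in the 5p strands. They may share reads, although none of the 9 names had a fractional count. Python 3.11.15 with matplotlib 3.10.9 drew the figures.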

Additional observations from a re-analysis of the deposited data

How the results depend on the processing

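The limits are 2 libraries per group, depths that differ within 3 of the 4 groups, and 3 to 12 reads for miR-3651, miR-664a-5p and miR-664b-3p in the shallow libraries. In those libraries miR-3607-3p had 4 to 14 reads and miR-3609 had 6 to 14. Without a depth term no alternative other than DESeq2 and the unfiltered fit called any of the 9 names, and each called 1, miR-1291, in R1855L against WT. The depth term called 3 in R1855L against WT, 1 in R821H against WT and 2 in R1003Q against R1855L. With the depth term and each library left out, 1 to 3 were called in R1855L and 0 to 1 in R821H, while leaving a library out of the model without that term called 0. The cause of each change was not tested.

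Over all names, R1855L against WT had 36 calls, against 14 with library totals, 2 with only the 4 libraries compared, 177 with the depth term and 15 to 27 with a library left out (fewest without R1855L replicate 1). R821H against WT had 1 call by DESeq2 and 16 with the depth term, and R1003Q against WT had 2 with the depth term. R821H against R1855L had 24 calls, against 38 by DESeq2, 8 with library totals, 40 without the filter, 6 with 4 libraries, 114 with the depth term and 8 to 24 with a library left out. R1003Q against R1855L had 23, against 38 by DESeq2, 11 with library totals, 13 with 4 libraries, 93 with the depth term and 2 to 19 with a library left out (fewest without R1003Q replicate 1).

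The deviations of same-numbered libraries correlated at -0.661 between R1855L and WT, -0.674 between R821H and WT and 0.0784 between R1003Q and WT. They correlated at 0.528 between R821H and R1855L, 0.0296 between R1003Q and R1855L and -0.115 between R1003Q and R821H. The deep library is replicate 1 in R1855L and R821H and replicate 2 in WT. Replicate number and depth class are thus mixed in these values, which cannot decide whether same-numbered libraries were paired. With the replicate number as a block, 19 names were called in R1855L against WT, 15 in R821H against R1855L and 13 in R1003Q against R1855L, and 0 of the 9 in all 6 comparisons.

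The sign of miR-664b-3p turned in R1855L without the filter (-0.074) and in R821H with library totals (-0.043), and that of miR-3607-5p turned in R1003Q with the depth term (-0.053). With a library left out, log2 fold changes in R1855L against WT ran from -0.53 to 0.11 for miR-664a-5p, -0.27 to 1.55 for miR-664a-3p, -0.26 to 0.27 for miR-664b-3p, -0.16 to 1.5 for miR-3607-3p and -0.28 to 0.29 for miR-3609. In R821H they ran from -0.44 to 1.39 for miR-664a-3p, -0.20 to 0.28 for miR-664b-3p, -0.66 to 1.40 for miR-1248, -0.25 to 1.32 for miR-3607-5p and -0.24 to 0.72 for miR-3651. In R1003Q they ran from -1.55 to 0.25 for miR-664a-3p and -0.19 to 1.00 for miR-3651, and in R1003Q against R1855L from -0.52 to 0.49 for miR-1248 and -1.21 to 0.035 for miR-1291. miR-1291 against WT ran from 1.54 to 2.76 in R1855L, 0.65 to 2.22 in R821H and 0.88 to 1.74 in R1003Q over the 16 alternatives that change 1 choice, with edgeR or DESeq2 adjusted p-values of 2.4e-05 to 0.266, 0.0241 to 1.00 and 0.320 to 1.

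With a library left out, the strand ratio change ran from -1.48 to 0.18 for miR-664a and -1.03 to 1.61 for miR-3607 in R1855L, -0.79 to 0.86 and -1.12 to 0.16 in R821H, and -1.31 to 0.35 and -0.66 to 0.49 in R1003Q. Strand pairs called were 32 in R1855L and 1 in R1003Q with the depth term, and 4 to 14 in R1855L with a library left out (fewest without WT replicate 1). The mean summed share was 584 RPM in R1855L, 410 in R821H, 401 in R1003Q and 287 in WT with miR-21 reads taken out of the total. Without miR-1248 it was 179.9 in R1855L, 133 in R821H, 98.6 in R1003Q and 85.0 in WT, and on library totals the 6 mutant libraries (93.6 to 229) then lay above both WT libraries (81.7 and 88.3). After TMM scaling the sum was 272 CPM in R1003Q replicate 1, of which miR-1248 was 177. In WT replicate 2 it was 148 CPM, of which miR-1248 was 50.4. On that scale, without miR-1248, R1003Q replicate 1 therefore lay below WT replicate 2, and those groups overlapped.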
